A study of Mus musculus with 6 samples.

Results

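The mitogen-activated protein kinases (MAPKs), the kinases stacked above them (MAP2Ks, MAP3Ks and MAP4Ks), the kinases they activate (MAPKAPKs) and the dual-specificity phosphatases (DUSPs) were followed in LSK-SLAM cells. These cells are a hematopoietic stem cell-enriched fraction of the bone marrow. Members were taken by name alone: a probe was included when its gene name in the scanner files was Mapk, Map2k, Map3k, Map4k, Mapkapk or Dusp followed by a number. The rule found 67 genes, measured by 104 of the 39411 non-control probes of the array, which carried 23596 genes with a RefSeq name in all. The expression of each was compared between 3 arrays of 2T-WT cells and 3 arrays of 2T-p190-B-/- cells.

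Both groups were Lin-, c-Kit+, Sca-1+, CD150+ and CD48- cells sorted from the bone marrow of secondary transplanted (2T) mice, which were lethally irradiated recipients in a serial graft. The grafts were started from fetal liver cells of p190-B-/- embryos, which lack the GTPase-activating protein p190-B (gene Arhgap5), or of their WT littermates, each mixed with wild-type competitor marrow. The gate in the labels names no donor marker, so how many sorted cells came from the competitor or the host is not known here. Whether the RNA of an array came from 1 animal or from a pool is not stated in the labels, and neither is the age of the animals. The study describes independent mice in each group and repeated isolations, without saying how these were spread over the arrays. The p-values below therefore measure only the spread between these samples.

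In the MAPK relay a MAP3K phosphorylates a MAP2K, which then phosphorylates a MAPK on a threonine and a tyrosine. The ERK branch mainly carries growth factor and cytokine signals, the JNK and p38 branches carry stress and inflammatory signals, and TGF-β can enter the stress branches through the MAP3K TAK1 (Map3k7). DUSPs switch MAPKs off by removing both phosphates, and several of them are themselves induced by the kinases they restrain. In hematopoietic stem cells the p38 branch is best known for its link to oxidative stress and loss of self-renewal. Arrays measure mRNA and say nothing about phosphorylation.

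Arhgap5 had a single probe, detected on none of the 2T-WT arrays and only on replicate 2 of the 2T-p190-B-/- arrays, so it could not check the genotype labels. Of the 9 markers of the sorted population, Kit was above background on 5 arrays, and Ly6a (Sca-1) and Mecom on all 6. The summed level of the list was 2.35 to 2.47 in 2T-WT and 2.36 to 4.64 in 2T-p190-B-/-, and Mecom, a transcription factor of stem cells, was higher without overlap (difference 2.07 ± 0.93, limma adjusted p = 0.637). Slamf1 (CD150), which defines the gate, and Procr were above background on 0 arrays, while Cd48, which the gate excludes, was above background on all 6. The B lymphocyte list stood apart on 1 array: its summed level (log2, relative to the 75th percentile of each array) was 9.5 on 2T-WT replicate 3 (Cd79a alone 9.47) and 2.15 to 2.66 on the other 5 arrays, with 4 of its 7 markers above background on every array. The summed macrophage level was 9.83 to 12.52 in 2T-WT and 9.08 to 9.84 in 2T-p190-B-/-, the T lymphocyte level 5.58 to 7.15 and 5.11 to 5.82, and the megakaryocyte level 5.70 to 6.43 and 4.46 to 5.82. Each of these sums came mostly from 1 probe: Itgam (9.74 to 12.48 and 8.97 to 9.79), Cd4 (4.88 to 7.06 and 4.54 to 5.34) and Itgb3 (5.11 to 6.39 and 4.01 to 5.67). Of the other macrophage markers, Csf1r (difference −1.18) and Cd14 (−2.17) were lower in 2T-p190-B-/-, Adgre1 (0.96) was higher and Cd68 was not tested. Probes of Elk1 and Mef2a, transcription factors outside these marker lists, were about as bright as Itgam and ranked the arrays of each group alike. In 2T-WT they read 10.91, 10.34 and 12.3 (Elk1) and 10.98, 10.23 and 12.19 (Mef2a). Their differences were −1.35 and −1.22, against −1.64 for Itgam. Whether the macrophage sum reflects macrophages was not tested. The neutrophil lineage level was 1.98 to 3.25 and 1.87 to 2.32, and the red cell precursor level 1.66 to 2.47 and 1.97 to 2.45. The part of these cell markers in the results below was not tested, and for several members, not all, the value without 2T-WT replicate 3 is given beside the difference.

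Members were detected about as often as other probes. To be tested, a probe had to be detected (well above background, the scanner software's flag) on 3 or more arrays, which held for 65 of the 104 member probes (62.5%) and for 63.8% of all probes. On all 6 arrays 37 member probes were detected (35.6%, against 34.9%), and on no array 16 (15.4%, against 16.8%). The 65 tested probes stood for 53 genes. By array, 49, 67 and 56 member probes were above background on 2T-WT replicates 1 to 3, whose 75th-percentile signals were 125, 227 and 53.9. On 2T-p190-B-/- replicates 1 to 3 there were 76, 54 and 70, at 385, 321 and 252.

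Of the 14 genes that were not tested, 6 had no probe above background on any array and 8 had one on 1 or 2 arrays. The kinases never detected were Map2k3, which activates p38, Map3k3, which acts above ERK5, Map3k8 (Tpl2), which acts above ERK in inflammatory signalling, and Map4k1 (HPK1), a kinase of blood cells. The undetected phosphatases were Dusp10, which acts on JNK and p38, and Dusp21, a phosphatase best known from testis. Dusp3 (VHR), Dusp8 and Dusp19 were each detected on 1 or 2 arrays only. Map3k15 (ASK3), an osmotic stress kinase, was above background on 0 2T-WT arrays and on 2T-p190-B-/- replicates 1 and 2, where its normalized log2 signal was −0.10 and 0.46, while replicate 3 was at −6.00 and the 2T-WT arrays were at −4.49, −6.24 and −4.28. This put its mean at least 2.05-fold higher in 2T-p190-B-/-, with no test. The groups overlapped, since 2T-p190-B-/- replicate 3 lay below 2T-WT replicates 1 and 3. Throughout, "at least" sets the mean of the brighter group against the lowest signal detected on each array of the dimmer group, or the probe's own signal where that was higher. Some undetected probes read above that lowest signal, so the fold is not a strict minimum. Dusp12 and Dusp28 were each above background on 2 2T-p190-B-/- arrays and 0 2T-WT arrays, Dusp18 and Mapkapk2 (MK2, the main p38 effector) on 1 and 0. The means of these 4 stayed below the bound in both groups, which gives no fold.

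Values here are log2 signals relative to the 75th percentile of their own array, and differences are 2T-p190-B-/- minus 2T-WT. In such bulk samples fewer cells of a kind and less RNA per cell cannot be told apart. No member passed limma at an adjusted p of 0.05: 0 of 65 probes, where 0 of 25142 probes (0%) passed over the whole array. The smallest adjusted p of a member was 0.637. At an unadjusted limma p of 0.05 there were 7 of 65 member probes (10.8%), against 6.58% of all probes, of which 5 were higher (background 3.19%) and 2 lower (background 3.39%) in 2T-p190-B-/-. Of the 5, 3 passed the filter through their 2T-p190-B-/- arrays alone, which favours a higher value there, and 2 of these are nearly 1 oligo (Map3k1). The count is therefore no support for a direction. The methods' t-test at an unadjusted p of 0.05 with a 2-fold difference called 3 higher (background 2.31%) and 1 lower (background 4.1%), and none after Benjamini-Hochberg adjustment. The 3 against 3 design allows no exact two-sided permutation p below 0.1.

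All arrays of one group lay above all arrays of the other for 11 of the 65 probes (16.9%), against 16.1% of all probes with 6 values. Of these 5 were higher in 2T-p190-B-/- (7.69%, background 4.52%) and 6 were lower (9.23%, background 11.6%), so the members' share lies near that of the array. The 5 higher include the 3 probes that passed the filter through their 2T-p190-B-/- arrays alone, among them both Map3k1 probes, so this count also supports no direction. A lower mean in 2T-p190-B-/- was found for 36 of the 65 probes (55.4%, background 60.8%) and a higher mean for 29 (44.6%, background 39.2%). Counted by the brighter probe of each gene, 31 of 53 genes had a lower and 22 a higher mean in 2T-p190-B-/-, with a median difference of −0.30. The median over all 16001 genes tested was −0.36, and 25 of the 53 members lay below it. Among the 16 member probes above background on no array, 15 also had a lower value in 2T-p190-B-/-, with a median of −0.95, as had 98.2% of all such probes. For several dim members, not all, the number of arrays with detection is given beside the difference.

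**Figure D1:**
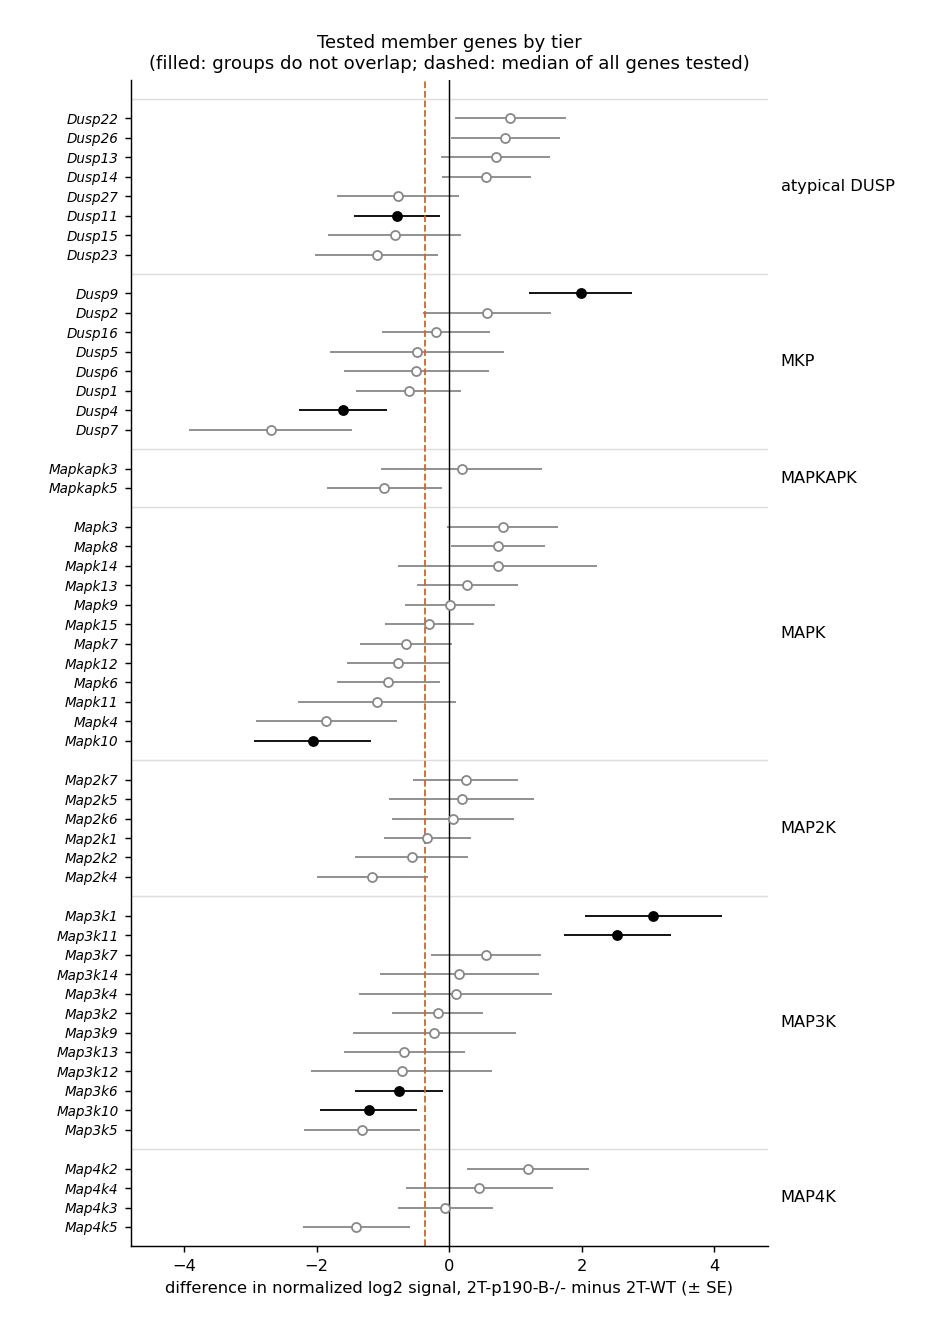
Difference in normalized log2 signal (2T-p190-B-/- minus 2T-WT, x axis, with the standard error from limma) for the tested member genes, 1 row per gene, grouped by tier (1 gene is counted in the text but not drawn). Filled points mark the 8 genes whose 3 arrays of one group all lie above those of the other, the dashed line marks the median of all genes (−0.36), and Map3k1 and Map3k11 lie farthest to the right and Dusp7 farthest to the left.

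Among the MAP3Ks, the entry kinases of the relay, 12 of 15 genes were tested, of which 7 were lower and 5 higher, with a median of −0.20. Map3k1 (MEKK1) is an upstream kinase of JNK and ERK that also carries a ubiquitin ligase domain. Its 2 probes are shown because they are nearly the same oligo: each is 60 bases long and 55 of these are shared, so they are not independent measurements. The first 30 bases of each are printed 5′ to 3′, with the bases common to both stretches in capitals. They lie on the minus strand of chr13:112536814-112536873 (probe 1) and chr13:112536809-112536868 (probe 2) of mm9, the build of the probe annotation, which does not say whether the sites are exonic.
Map3k1 probe 1: taagaCTTCCAGGGCTTAAGGGCTAACTCC
Map3k1 probe 2: CTTCCAGGGCTTAAGGGCTAACTCCtatta

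Map3k1 probe 1 read −2.48, −6.29 and −4.48 in 2T-WT and −1.73, −1.74 and −0.55 in 2T-p190-B-/-. The 3 2T-p190-B-/- values were all above background and all higher than the 2T-WT values, of which none was above background. The measured difference was 3.08 ± 1.03 (SE, n = 3 per group, limma adjusted p = 0.637), at least 2.91-fold as defined above. That difference was 0.85 with all arrays raised to a common floor, the highest of the arrays' lowest detected signals, and 1.0 with normexp background correction. Both lie below 2.91-fold, which is therefore not a strict minimum. Probe 2 read −4.47, −6.17 and −4.42 in 2T-WT and −3.93, −2.17 and −1.22 in 2T-p190-B-/-, again without overlap and with the same detection. Its difference was 2.58 ± 0.93, at least 1.38-fold. Both probes entered the test only through their 2T-p190-B-/- arrays, so the filter itself favoured a higher value there.

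Map3k11 (MLK3) is a mixed-lineage kinase that feeds JNK and is bound by the small GTPases Rac1 and Cdc42. Its probe lies on the plus strand of chr19:5702495-5702554 (mm9), and its first 30 bases are printed as the oligo behind the member with the smallest p.
Map3k11: ttcacactggatgggggctacaccccacat

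Map3k11 read −3.26, −2.48 and −3.09 in 2T-WT and 0.43, 0.09 and −1.75 in 2T-p190-B-/-. Every 2T-p190-B-/- array was higher than every 2T-WT array, and the signal was above background on 1 2T-WT and 3 2T-p190-B-/- arrays. The measured difference was 2.53 ± 0.81, with an unadjusted limma p of 0.0136 and an adjusted p of 0.637. It was 3.05 between the 2 arrays per group that shared a slide, and 2.46 without 2T-WT replicate 3. Since 2 of the 2T-WT values were not above background, the fold is not given, and the difference was 1.78 with the common floor and 1.18 with normexp.

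The other mixed-lineage kinases depended on the probe. Map3k9 (MLK1) was represented by a bright probe with values of 2.86, 3.15 and −0.89 in 2T-WT and 1.53, 2.73 and 0.18 in 2T-p190-B-/-, a difference of −0.22 ± 1.22 with wide overlap. A dim Map3k9 probe was above background on 0 2T-WT and 3 2T-p190-B-/- arrays, with −4.56, −5.20 and −4.36 against −3.43, −1.56 and −2.89, and was at least 1.22-fold higher (difference 2.08 ± 0.76). The brighter and dimmer probe thus read opposite signs, and the dim one passed the filter through 1 group alone.

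Map3k10 (MLK2) is another JNK-pathway kinase. Its 2 probes are printed because they also disagree and differ in sequence: 30 bases around the longest run of G, in capitals, are shown for each. The brighter probe, on the minus strand of chr7:28441524-28441583 (mm9), holds a run of 6 G, and the dimmer, on the minus strand of chr7:28442866-28442925, a run of 4.
Map3k10 brighter probe: tttattggggaaGGGGGGaggggaggacac
Map3k10 dimmer probe: acgccatcagatGGGGctttgagacaacgg

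On the brighter Map3k10 probe 2T-WT read 4.18, 3.99 and 5.23 and 2T-p190-B-/- 2.71, 3.11 and 3.95, so that the groups did not overlap. The difference was −1.21 ± 0.73 (limma adjusted p = 0.637), and −0.83 without 2T-WT replicate 3. The dimmer probe, also above background on all 6 arrays, read −1.17, −1.89 and −0.51 against −0.42, 0.63 and −1.02, a difference of 0.92 ± 0.77. What the G runs do to either signal was not tested.

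Map3k7 (TAK1), through which TGF-β and TRAF6 reach p38 and JNK, had values of −2.77, −2.28 and −1.90 in 2T-WT and −2.58, −2.42 and −0.29 in 2T-p190-B-/-. The groups overlapped, and the difference was 0.55 ± 0.83 (limma adjusted p = 0.836). A second Map3k7 probe gave −0.52 ± 0.89, and within the shared slide the first gave −0.41. Map3k5 (ASK1), the redox-sensitive MAP3K above p38 and JNK, had a difference of −1.32 ± 0.87 with overlapping groups, and −0.59 without 2T-WT replicate 3. Map3k6 (ASK2), which pairs with ASK1, did not overlap on its brighter probe, with 1.48, 1.90 and 0.92 in 2T-WT and 0.63, 0.51 and 0.87 in 2T-p190-B-/-. This difference of −0.76 ± 0.66 compares with 0.14 ± 0.73 on its other probe.

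The remaining tested MAP3Ks, Map3k2, Map3k4, Map3k12, Map3k13 and Map3k14, had differences between −0.72 and 0.15 and overlapped. Without 2T-WT replicate 3, the difference of Map3k12 (DLK) changed from −0.72 to 0.72 and that of Map3k13 (LZK) from −0.68 to 0.06. That of Map3k4 changed from 0.10 to −0.58 and that of Map3k14 (NIK) from 0.15 to −0.27.

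The MAP4Ks are Ste20-type kinases above the MAP3Ks, and 4 of 5 were tested, each above background on all 6 arrays. Map4k2 read −0.25, 1.85 and −0.62 in 2T-WT and 2.58, 0.60 and 1.35 in 2T-p190-B-/-. Its difference of 1.19 ± 0.92 came with overlapping groups. Map4k5 read 2.06, 1.38 and 2.70 in 2T-WT and 0.30, −0.20 and 1.83 in 2T-p190-B-/-, a difference of −1.40 ± 0.81 with overlap by 1 array. Neither passed (limma adjusted p of 0.676 and 0.637), and Map4k3 (−0.06) and Map4k4 (0.45) lay between them.

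**Figure D2:**
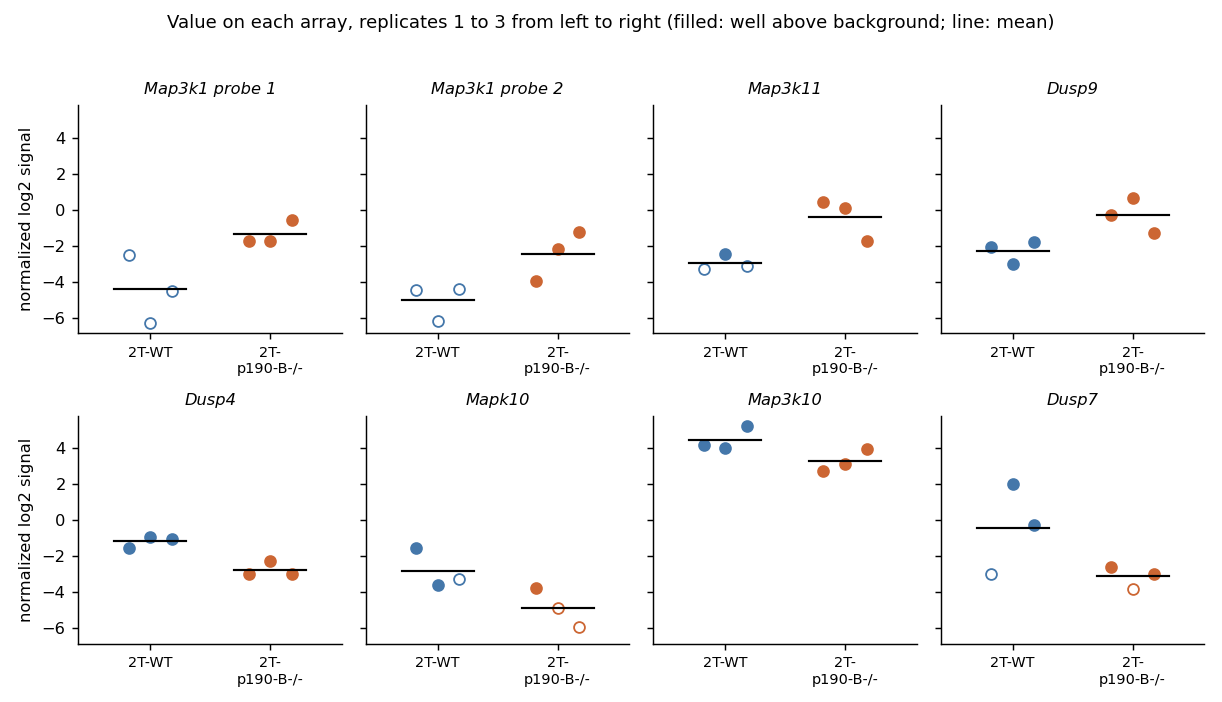
Normalized log2 signal (y axis) on each array for 7 members, with 2 Map3k1 probes, by group (x axis); replicates 1 to 3 run from left to right in each group. Filled points are well above background, open points are not, and the line is the mean of 3 arrays: the 2T-WT points of both Map3k1 probes are all open, and the groups overlap only for Dusp7.

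At the MAP2K tier 6 of 7 genes were tested, 3 lower and 3 higher, with a median of −0.14. None of their brighter probes separated the groups. Map2k1 (MEK1) and Map2k2 (MEK2), which activate ERK, had differences of −0.33 ± 0.66 and −0.57 ± 0.85, and the other Map2k2 probe gave 0.03 ± 0.94. Map2k1 was the steadier of the pair, at −1.84, −1.69 and −1.06 in 2T-WT and −2.16, −1.81 and −1.60 in 2T-p190-B-/-.

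Map2k4 (MKK4), which activates both JNK and p38, read −2.69, −2.74 and −0.80 in 2T-WT and −4.12, −2.56 and −3.04 in 2T-p190-B-/-. The difference was −1.16 ± 0.84 (limma adjusted p = 0.657), with overlap, and −0.52 without 2T-WT replicate 3. Map2k7 (MKK7), specific for JNK, was at 0.25 ± 0.79 and above background on 3 arrays. Map2k6 (MKK6), specific for p38, was at 0.06 ± 0.92, while Map2k3 (MKK3), its partner, was never above background. Map2k5 (MEK5), which activates ERK5, read opposite signs on its probes: 0.18 ± 1.1 on the brighter, and −1.21 ± 0.78 on the dimmer, where the groups did not overlap (−3.26, −3.58 and −1.59 against −4.07, −4.31 and −3.67). The dimmer probe was above background on 2 arrays of each group.

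All 13 MAPK genes were tested, 8 lower and 5 higher in 2T-p190-B-/-, with a median of −0.43. Mapk10 (JNK3), the JNK best known from the nervous system, was the only MAPK whose groups did not overlap. It read −1.56, −3.59 and −3.26 in 2T-WT and −3.79, −4.88 and −5.93 in 2T-p190-B-/-, and was above background on only 2 and 1 of these arrays. The difference was −2.06 ± 0.88 (unadjusted limma p of 0.0473, adjusted p of 0.637), and −0.91 within the shared slide. With the common floor it was −0.21, where 5 of the 6 arrays were at the floor and the groups no longer separated, and with normexp −0.35. The ubiquitous JNKs were brighter and differed less: Mapk8 (JNK1) read −0.59, 0.35 and 0.36 against 0.14, 1.26 and 0.92 (difference 0.73 ± 0.71). Mapk9 (JNK2) read 0.39, −0.04 and 0.36 against 0.02, −0.17 and 0.88, a difference of 0.01 ± 0.67.

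None of the p38 kinases passed the test. Mapk14 (p38α), the isoform that carries most p38 signalling in blood cells, had 2 probes, of which 1 was above background on no array. The other read −4.72, −5.16 and 0.06 in 2T-WT and −3.77, −3.25 and −0.61 in 2T-p190-B-/-. It was above background on 1 and 2 arrays, and the array with the highest Mapk14 value was 2T-WT replicate 3. The difference of 0.73 ± 1.5 (limma adjusted p = 0.882) became −0.96 within the shared slide and 2.40 without 2T-WT replicate 3, so the direction of Mapk14 is not settled by these arrays.

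Mapk11 (p38β) had a difference of −1.09 ± 1.19, with −1.02, −3.50 and −0.86 in 2T-WT and −3.63, −4.40 and −0.62 in 2T-p190-B-/-. Mapk12 (p38γ), above background on all 6 arrays, was at −0.77 ± 0.77. Mapk13 (p38δ), also on all 6, was at 0.27 ± 0.76. All 3 overlapped between the groups.

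Mapk3 (ERK1), the end kinase of the ERK relay, had 2 probes above background on all 6 arrays and both were higher in 2T-p190-B-/-, at 0.81 ± 0.84 and 1.38 ± 0.97. Its groups overlapped on each: the brighter probe read −0.74, 0.10 and −0.48 in 2T-WT and 0.61, −0.95 and 1.64 in 2T-p190-B-/-. The difference of the brighter probe was 0.02 within the shared slide and 0.20 without 2T-p190-B-/- replicate 3. That of the other probe, nearly as bright, was 1.76 within the shared slide.

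The atypical MAPKs, which are not activated by a classical MAP2K, all had lower means in 2T-p190-B-/-. Mapk4 (ERK4) read 1.94, −1.31 and 0.46 in 2T-WT and −2.53, −1.94 and 0.01 in 2T-p190-B-/-, a difference of −1.85 ± 1.06 (limma adjusted p = 0.637) with overlap. Mapk6 (ERK3) was detected on every array and at −0.92 ± 0.78 (−0.29 without 2T-WT replicate 3), and Mapk15 (ERK7/8) was at −0.30 ± 0.67. Mapkapk5 (MK5/PRAK), the kinase activated by ERK3 and ERK4, was at −0.98 ± 0.87 on its brighter probe and at 0.54 ± 1.11 on its other tested probe. Mapkapk3 (MK3), a p38 effector, was at 0.19 ± 1.21, and Mapk7 (ERK5), the target of MEK5, at −0.66 ± 0.69 with overlap.

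Branches were compared by the median difference of their MAPKs, MAP2Ks and MAPKAPKs, as a description, with the MAP3Ks Map3k2 and Map3k3 added for ERK5 and the shared Map2k4 counted under JNK. The p38 branch (6 of 8 genes tested, 4 higher) had a median of 0.12, the JNK branch (5 of 5, 3 higher) 0.01 and the ERK branch (4 of 4, 1 higher) −0.38. The ERK5 branch (3 of 4, 1 higher) was at −0.17 and the atypical MAPKs with Mapkapk5 (4 of 4, 0 higher) at −0.95. Against the all-gene median of −0.36, this put p38 0.49 and JNK 0.37 above it, ERK at it (−0.02) and the atypical branch 0.59 below it.

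The order of p38, JNK and ERK did not outlast the alternatives. Over 16 alternative settings the p38 median ranged from −0.67 to 0.59 and took the other sign in 8, the JNK median from −0.31 to 0.37 with 7, and the ERK median from −0.61 to 0.11 with 2. Within the slide that held both genotypes p38 was at −0.67, JNK at −0.25 and ERK at −0.29. The atypical branch kept a negative median in all 16, from −1.42 to −0.44, and stayed below the all-gene median in all 16. With 3 to 6 genes a branch, and spreads between genes wider than the distances between branches, no branch is called different from another.

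**Figure D3:**
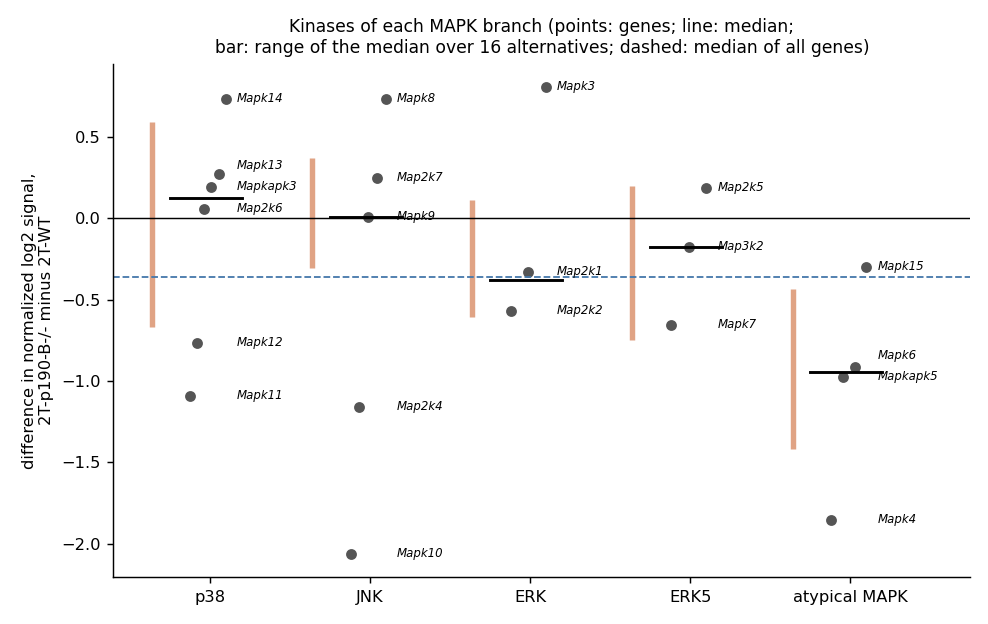
Differences in normalized log2 signal (2T-p190-B-/- minus 2T-WT, y axis) of the tested kinases of each branch (x axis), with points for genes (1 is not drawn), a black line for the median of all tested genes of the branch and a bar for the range of that median over 16 alternatives. The dashed line is the all-gene median (−0.36): the bars of p38, JNK, ERK and ERK5 all cross 0, and that of the atypical branch lies below it.

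The MAPK phosphatases proper (MKPs), which dock on MAPKs, were tested for 8 of 10 genes, 6 lower and 2 higher, with a median of −0.49. Dusp9 (MKP-4), a cytoplasmic phosphatase that prefers ERK, and Dusp4 (MKP-2), a nuclear phosphatase induced by ERK, differed in opposite directions without overlap. The first 30 bases of the probes are given because these were the 2 MKPs whose groups did not overlap. They lie on the plus strands of chrX:70888467-70888526 and chr8:35882045-35882104 (mm9).
Dusp9: cactgagactctttgtgactgagggtggtc
Dusp4: aataacggcggtttccgctgccagagaaga

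Dusp9 read −2.06, −2.98 and −1.81 in 2T-WT and −0.28, 0.64 and −1.26 in 2T-p190-B-/-. The 2T-p190-B-/- arrays were all higher, with a difference of 1.98 ± 0.78 or 3.95-fold (unadjusted limma p of 0.0342, adjusted p of 0.637). Dusp4 read −1.55, −0.92 and −1.02 in 2T-WT and −3.00, −2.28 and −3.00 in 2T-p190-B-/-. Its 2T-p190-B-/- arrays were all lower, with a difference of −1.60 ± 0.67 or 3.03-fold (unadjusted limma p of 0.0426, adjusted p of 0.637). Both genes were above background on every array. Within the shared slide Dusp9 was at 2.58 and Dusp4 at −1.67, and without 2T-WT replicate 3 at 2.22 and −1.53. With normexp the differences were 1.11 and −0.62.

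Dusp7 (MKP-X), a cytoplasmic ERK phosphatase related to Dusp6 and Dusp9, had the largest negative difference of any tested member, −2.69 ± 1.23 (limma adjusted p = 0.637). It read −3.01, 2.02 and −0.29 in 2T-WT and −2.58, −3.80 and −2.98 in 2T-p190-B-/-, so 2T-WT replicate 1 lay among the 2T-p190-B-/- values. The Dusp7 probe was above background on 2 arrays of each group. Dusp6 (MKP-3), the best known feedback phosphatase of ERK, was at −0.50 ± 1.1 and turned to 0.57 without 2T-WT replicate 3, where it read 2.26. Dusp1 (MKP-1), an immediate early gene that acts on p38 and JNK, read −2.48, −2.41 and −0.70 against −3.17, −1.90 and −2.36, a difference of −0.61 ± 0.79 with overlap, and −0.03 without 2T-WT replicate 3.

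By class, the inducible nuclear phosphatases Dusp1, Dusp2, Dusp4 and Dusp5 had a median of −0.55, with 3 of 4 lower. The cytoplasmic ERK phosphatases Dusp6, Dusp7 and Dusp9 had a median of −0.50, with 2 of 3 lower. Of the JNK and p38 phosphatases, Dusp16 alone was tested, at −0.20 ± 0.82, since Dusp8 was above background on 2 arrays and Dusp10 on none.

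The atypical DUSPs lack the kinase-docking domain, and 8 of 14 were tested, 4 lower and 4 higher, with a median of −0.11. Dusp11, which acts on RNA 5′ ends, was the one gene of the class without overlap, with 1.33, 1.29 and 1.96 in 2T-WT and 0.68, 0.60 and 0.94 in 2T-p190-B-/-, a difference of −0.79 ± 0.65. Dusp22 (JKAP), a phosphatase of the JNK and T cell receptor pathways, was at 0.92 ± 0.84 on a probe above background on all 6 arrays, of which 2T-p190-B-/- replicate 1 read 1.15 and the other 5 between −1.76 and −0.57. A second Dusp22 probe, not tested, was above background on 2 2T-WT and 0 2T-p190-B-/- arrays, with −4.55, −3.92 and 1.61 in 2T-WT, so that 2T-WT replicate 3 alone stood out and no fold is given. The others ranged from −1.09 (Dusp23, −0.22 without 2T-WT replicate 3) to 0.85 (Dusp26).

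Probes of the same gene often read opposite signs. For 12 genes 2 probes were tested, and in 9 of them the signs differed: Dusp13, Map2k2, Map2k5, Map3k6, Map3k7, Map3k9, Map3k10, Map4k4 and Mapkapk5. They shared a sign for Dusp15, Map3k1 and Mapk3. The Map3k1 pair is 1 oligo shifted by 5 bases, and the probes of Mapk3 and Dusp15 lie apart in the genome.

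**Figure D4:**
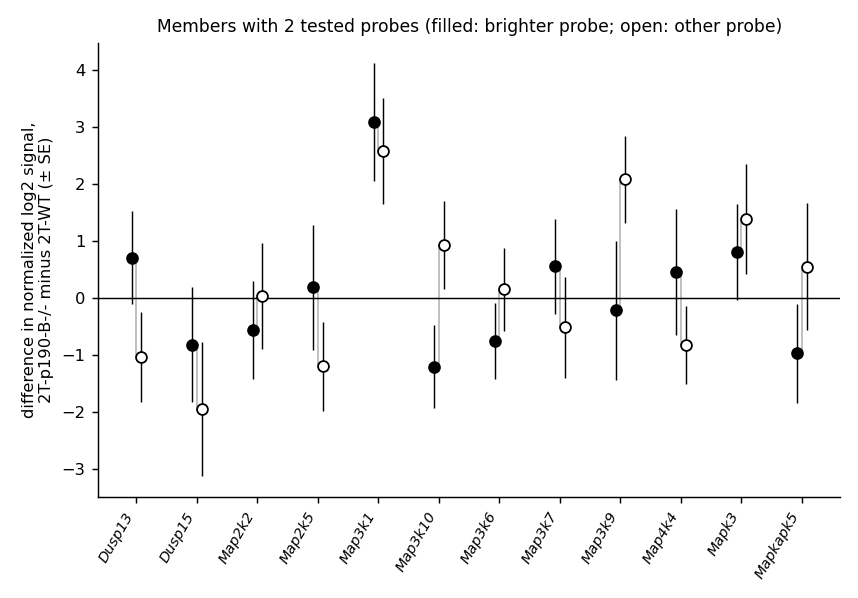
Difference in normalized log2 signal (2T-p190-B-/- minus 2T-WT, y axis, with the standard error from limma) for the 12 members (x axis) that had 2 tested probes. Filled points are the brighter probe of a gene and open points the other; in 9 genes the points lie on opposite sides of 0, and Map3k10 reads −1.21 and 0.92.

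Genes around the relay were taken from lists of non-members. Of the Ras, Raf and adaptor genes 6 of 12 were tested, 4 lower, with a median of −0.86 and 0 at an adjusted limma p of 0.05. Ksr2, a scaffold of the ERK relay, had groups that did not overlap, at 1.53, 1.97 and 2.29 in 2T-WT and −1.13, −0.98 and −0.16 in 2T-p190-B-/-, a difference of −2.69 ± 0.68 (limma adjusted p = 0.592). Ksr2 has 3 probes on the array, and only the brightest is given. Over the whole array, 16.1% of probes with 6 values had groups without overlap. Of the scaffolds and MAP3K partners 11 of 13 were tested, 9 lower, median −0.39, among them Tab1 (−1.38 ± 0.91) and Tab2 (−1.30 ± 0.80), the partners of TAK1, with overlapping groups. Of the effector kinases 5 of 8 were tested, 4 higher, median 0.86, the one of these 5 lists with a median above 0, with Rps6ka2 (RSK3) at 1.57 ± 0.81. That median was 0.16 within the shared slide, 0.55 when 2T-WT replicate 3 was left out and 0.45 when 2T-p190-B-/- replicate 3 was.

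Of the transcription factor targets of MAPKs 10 of 12 were tested, 7 lower, with a median of −0.91. That median was −0.08 after quantile normalization and 0.01 after background correction by normexp. Of the feedback inhibitors 3 of 10 were tested, 3 lower, median −1.27, with Spry2, an ERK pathway inhibitor, at 2.75, 2.99 and 4.55 in 2T-WT and 1.87, 2.20 and 2.42 in 2T-p190-B-/-. Its groups did not overlap (difference −1.27 ± 0.75). Spred1, another of the 3, was fitted on 4 arrays because its spots were outliers on the others. Again 0 genes of these lists passed at an adjusted limma p of 0.05.

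Promoters of 53 member genes were found in the RefSeq-based table of assembly GRCm38.p6, as 68 windows of equal length around a start site. The windows were searched on both strands for sites of factors that MAPKs act on. The cyclic AMP response element TGACGTCA was in 3 of the 68 windows (Dusp1, Dusp8 and Mapk10) and in 1.79% of all 32851 windows. The AP-1 site TGACTCA was in 2 (Dusp13 and Map3k10), against 5.2%, and the ETS site CCGGAAGT in 2 (Map3k6 and Map3k11), against 3.89%. The Smad palindrome GTCTAGAC was in 1 (Dusp28), against 0.213%. Stretches of 80 bases are printed for 4 members described above that hold a match, to show where it sits, 5′ to 3′ on the strand of the gene, with the match in capitals (for ETS and AP-1 as the reverse complement). Each match lies before the start site. They lie on the plus strand of chr19:5688990-5689069 (Map3k11), and on the minus strand of chr7:27674752-27674831 (Map3k10), chr5:103211335-103211414 (Mapk10) and chr17:26508572-26508651 (Dusp1).
Map3k11, ETS: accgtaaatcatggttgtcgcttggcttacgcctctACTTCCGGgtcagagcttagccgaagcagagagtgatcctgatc
Map3k10, AP-1: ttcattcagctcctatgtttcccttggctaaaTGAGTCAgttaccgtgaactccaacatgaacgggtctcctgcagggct
Mapk10, CRE: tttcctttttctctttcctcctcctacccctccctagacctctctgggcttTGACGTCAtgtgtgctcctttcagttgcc
Dusp1, CRE: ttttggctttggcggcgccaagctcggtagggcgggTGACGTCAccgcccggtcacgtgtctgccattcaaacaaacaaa

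These matches are a description of letters. Dusp1 and Mapk10, which share the CRE, had differences of −0.61 and −2.06, and Map3k11, with an ETS match, had 2.53 while Map3k6, with another, had −0.76.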

How the data were processed

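Groups and replicate numbers follow the sample labels. For each of 6 one-colour arrays the authors deposited scanner output (Agilent Feature Extraction 10.5.1.1, per the file headers), holding a background-subtracted intensity per spot that is not scaled between arrays, and a second intensity table that is this signal divided by 1 number per array. Control and outlier spots were left out; 0 spots were saturated. Values are log2 of the processed signal less the array's log2 75th percentile, averaged over the 122 member spots to 104 probes. Probes flagged as detected on 3 or more arrays were tested with limma 3.58.1 (R 4.3.3, lmFit and eBayes), with Benjamini-Hochberg adjustment over all probes. A gene is read from its brighter probe. Gene names are those of the files, and RefSeq accessions gave the same symbol for the 97 member probes matched by accession. Coordinates of probes are mm9. The number of arrays limits the precision.

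Named genes are the classical MAPKs and MAP2Ks, members in the study's own gene lists (picked on these arrays, so not independent), the 5 higher and 5 lower members with the smallest limma p, members without overlap at 2-fold or more, members detected in 1 group alone, and Map3k7, Mapkapk2, Dusp1 and Dusp6. Dusp11, Map3k5, Map3k6 and other further genes were named after their values were seen. Of the members, 1 is counted in the totals and medians and is not reported here on its own. Members and lists were chosen with earlier results of these data known. The scripts were tested on simulated data. Alternatives were quantile normalization, normexp (offset 50), other filters, the authors' table, slide and replicate blocks, 1 slide alone, each array left out, the methods' t-test, the mean over probes and, chosen after seeing the data, a common floor at the highest of the arrays' lowest detected signals.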

Additional observations from a re-analysis of the deposited data

How the results depend on the processing

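No member passed an adjusted limma p of 0.05 under any of the 16 alternatives that test probes, and 2 to 6 member probes passed an unadjusted p of 0.05 (7 as reported). Deviations of same-numbered arrays correlated at 0.00896, 0.0161 and 0.0863. This gives no sign that the numbers pair the samples, but with 3 arrays per group it cannot exclude pairing. With the replicate block 0 members passed the adjusted and 5 the unadjusted limma p, and that block changed no other call. Probes without overlap were 5 higher and 6 lower as reported. Among the 37 member probes above background on all 6 arrays they were 1 higher (3.28% of all such probes) and 4 lower (14%). With the common floor they were 3 higher (3.66% of all probes) and 4 lower (8.96%), of 65 members. They were 8 higher and 21 lower on slide 2 alone (2 against 2 arrays), and 5 to 10 higher and 7 to 16 lower leaving out 1 array. The count of higher probes became 8, 10 and 8 without 2T-WT replicate 2, 2T-WT replicate 3 and 2T-p190-B-/- replicate 3, and that of lower probes 10, 14, 11 and 16 without 2T-WT replicate 1, 2T-WT replicate 2, 2T-p190-B-/- replicate 2 and 2T-p190-B-/- replicate 3, since fewer arrays overlap less. Over all probes the shares were 12.7% higher and 33.3% lower on slide 2 alone (members 8 and 21 of 65), and 7.55% to 10% higher and 15.4% to 25% lower leaving out 1 array.

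Slide 2 held 2 arrays of each group, slides 1 and 3 one group each, and slide as a block and slide 2 alone gave the same values below; they differed for the feedback inhibitors (−1.73 and −0.75). There the MKP median was −1.23, the inducible nuclear −1.23, the cytoplasmic ERK −1.75 and the scaffold −0.90. With probes above background on all 6 arrays, the atypical DUSP median was 0.56, the inducible nuclear −1.60 and the cytoplasmic ERK 0.74, over fewer genes. The transcription factor target median was −0.0796 with quantile normalization and 0.0119 with normexp. Leaving out 1 array, the MKP median ran from −0.998 to −0.16, the ERK branch from −0.61 to 0.11, the inducible nuclear from −1.29 to −0.24 and the cytoplasmic ERK from −1.17 to 0.57.

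Of 28 named and tested genes 18 kept 1 sign throughout. The others reversed as follows. On slide 2, and with slide as a block, Mapk9 was −0.23, Mapk13 −0.38, Mapk14 −0.96, Map2k2 0.12, Map2k5 −0.82, Map2k6 −0.15, Map2k7 −0.25, Map3k7 −0.41 and Map3k9 1.00. With quantile normalization Mapk9 was −0.0165 and Map3k9 0.0614. With normexp Mapk9 was −0.0359, Mapk14 −0.00855 and Map2k6 −0.00332. With the common floor Mapk14 was −0.22, Map2k6 −0.0142 and Map2k7 −0.11. Leaving out 1 array, Mapk9 ran from −0.31 to 0.21, Mapk13 from −0.18 to 0.68, Mapk14 from −0.24 to 2.40, Map2k2 from −1.24 to 0.12, Map2k5 from −0.75 to 1.30, Map2k6 from −0.57 to 0.73, Map2k7 from −0.14 to 0.86, Map3k7 from −0.18 to 0.96, Map3k9 from −1.52 to 0.50 and Dusp6 from −1.17 to 0.57. The all-gene median ran from −0.53 (no filter) to −0.09 (normexp). The causes were not tested.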
